A study of Drosophila melanogaster with 6 samples.

Results

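The genes described here are 9 genes of fly blood cells, namely phagocytosis receptor genes and 1 marker gene. The receptor genes are croquemort (crq), draper (drpr), NimC1, eater, Sr-CI, Sr-CIV, peste (pes) and Dscam1, and the marker is Hemolectin (Hml). All 9 were chosen by name and function, and each was found under its FlyBase identifier among the 14869 gene identifiers in the count tables. All 9 passed the filter on low counts, which left 8690 genes for testing. S2-DRSC cells, an established Drosophila melanogaster line with properties of macrophages, received JQ1 at 10 µM and were harvested after 1, 2, 4 or 20 h, with DMSO controls of 1 and 20 h, and their polyadenylated RNA was sequenced. The compound JQ1 blocks the binding of BET proteins to acetylated lysines through their bromodomains, and the fly carries a single BET gene, fs(1)h. Every treatment and time was 1 library, so the JQ1 group held 4 libraries and the DMSO group 2, all from the same line.

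Phagocytosis starts when receptors on the surface of a cell bind a microbe or a dying cell, after which the membrane closes around the particle and the resulting phagosome matures and acidifies. In the fly this work is done mainly by plasmatocytes, the macrophage-like blood cells. The receptors fall into several families: the CD36-type scavenger receptors (crq, pes), the Nimrod-type receptors with EGF-like repeats (NimC1, eater, drpr), the class C scavenger receptors (Sr-CI, Sr-CIV) and the immunoglobulin superfamily protein Dscam1. Hml encodes a large secreted clotting protein and is not a receptor, but it is a widely used marker of these cells.

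The libraries held between 24547077 and 29823608 reads assigned to genes. Counts were divided by a factor per library, taken from the 100 genes most abundant in DMSO, and the quotient is called a scaled count. None of the 9 genes was in that index. On this scale the typical gene was lower with JQ1: the log2 fold changes of the 8690 tested genes had a median of -0.63, against -0.05 with TMM factors and -0.0041 with DESeq2 factors, so each change below is also set against the median of all genes. Of 7 plasmatocyte marker genes all 7 were tested, with summed scaled counts of 571700 to 947900 in JQ1 libraries against 596400 and 605900 in DMSO libraries. Markers of other cell types were far lower in sum: 697 to 1137 in JQ1 against 831 and 985 in DMSO for crystal cells, 422 to 833 against 1513 and 1445 for lamellocytes, 238 to 378 against 647 and 664 for neurons, and 29.5 to 50.1 against 33.4 and 37.7 for fat body. The lower lamellocyte and neuron sums moved with JQ1, and their part in the results was not tested. Each was mostly 1 gene: PPO3, with 1485 and 1418 in DMSO at 1 and 20 h, and elav, with 581.5 and 573.1. The crystal cell sum was mostly 1 gene as well, PPO2, with 768.7 and 927.8. The plasmatocyte sum was mostly Pxn, vkg and Col4a1, with 218400, 145400 and 198000 in DMSO at 1 h, and the lists differ in size. A sum that rests on 1 gene does not show that cells of that type were present. PPO1 of the crystal cell list and para of the neuron list were not matched by symbol. In bulk RNA fewer cells of a type and less RNA per cell cannot be told apart.

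With JQ1 the 9 genes went different ways. The scavenger receptors Sr-CI and Sr-CIV and the apoptotic cell receptors crq and drpr were lower than in DMSO in all 4 JQ1 libraries on the scale used here. So were eater and Dscam1, and 67.9% of all tested genes. Of the 9 genes Sr-CIV alone was so under every scaling, since Sr-CI, crq and drpr were level with DMSO at 1 h with TMM or DESeq2 factors. Hml and NimC1 stood far above DMSO at 20 h, with 9.76 and 4.83 times the DMSO mean. The bacterial receptor eater, pes and Dscam1 lay between 63.2% and 112% of the DMSO mean at every time on the scale used here. Comparing all JQ1 with both DMSO libraries, edgeR's quasi-likelihood test with Benjamini-Hochberg adjustment called 4 of the 9 genes lower and 0 higher at an adjusted p under 0.05, and the same 4 had an unadjusted p under 0.05. Across all tested genes 44.3% were called lower and 1.43% higher, so the count of lower calls among the 9 genes was close to the background. The DESeq2 Wald test called 4 lower and 0 higher as well, where it called 4344 of all 8690 tested genes lower and 166 higher.

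Over the 9 genes the edgeR log2 fold changes had a median of -0.36, with -0.63 over all tested genes. The latter median covers genes of every abundance, while crq, drpr, eater, Sr-CI, pes, Dscam1 and Hml were in the highest of 5 bins of abundance. The difference between these medians is thus not one from equally abundant genes. On this scaling all JQ1 libraries lay below both DMSO libraries in 6 of the 9 genes, and above both in 0. Such a separation was seen downward in 67.9% of all tested genes and upward in 3.74%. The calls depended on the scaling. Under an index of 500 genes, total counts, TMM or DESeq2 factors, the edgeR log2 fold changes of crq, drpr, Sr-CI and Sr-CIV were all still negative, but 0 of the 9 genes passed the test, where 25.9%, 21.9%, 6.52% and 5.55% of all genes were called lower. Over all genes, TMM factors gave 567 lower and 433 higher calls and DESeq2 factors 482 and 452, where the scaling used here gave 3853 and 124. Without either DMSO library 0 of the 9 genes and 0 of all genes were called. Leaving out the JQ1 libraries of 1, 2, 4 and 20 h in turn, the test called 3, 1, 2 and 5 of the 9 genes lower, where 44.7%, 25.3%, 30.6% and 64.3% of all genes were called lower, so the count moved with the background. The p-values compare libraries of different duration, none of which is said to come from a separate culture.

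**Figure D1:**
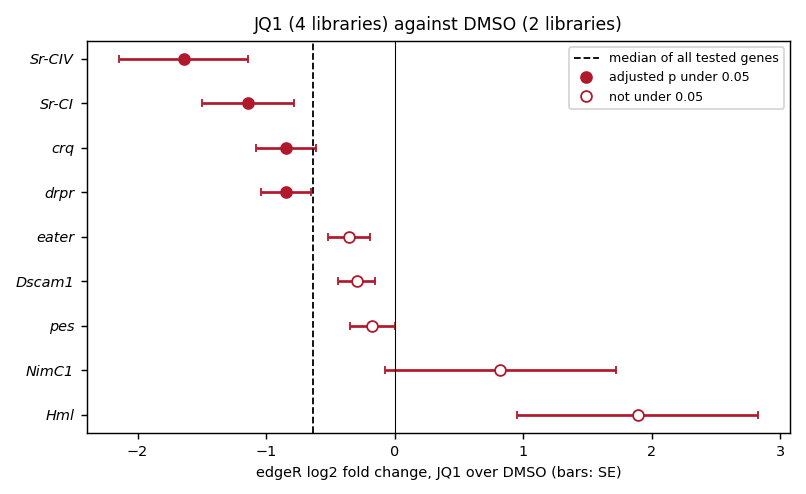
Log2 fold change of each gene from edgeR (horizontal axis; JQ1, 4 libraries, over DMSO, 2 libraries; bars are SE), with the median of all tested genes as a dashed line at -0.63. Filled points passed an adjusted p under 0.05 on this scaling, and none of the 4 does under the other scalings; eater, Dscam1 and pes, left of 0 here, lie right of 0 with TMM or DESeq2 factors.

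Levels were compared between the genes per kilobase of exon. At 20 h of JQ1 the order was headed by Hml, at 11030 scaled counts per kilobase, ahead of Sr-CI (3142), pes (3070), eater (1985), crq (1338), drpr (1161), NimC1 (1136), Sr-CIV (305.4) and Dscam1 (120.4). With 1 library at that time, close neighbours such as Sr-CI and pes, or drpr and NimC1, cannot be ordered. In DMSO the order was led by Sr-CI, with a mean of 9445 scaled counts per kilobase, followed by pes at 2742. At 1 and 20 h of DMSO, drpr (2434 and 2276), crq (2234 and 2290) and eater (2052 and 2331) came next, with overlapping values, so these 3 cannot be ordered. Hml (1130), Sr-CIV (490.6), NimC1 (235.2) and Dscam1 (173.9) were lower, and the range of each lay apart from its neighbours. For Dscam1 the length covers exons that no single transcript holds together, which lowers its value.

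Class C scavenger receptors bind polyanionic ligands and bacteria. Sr-CI, the most abundant of the 9 genes per length in DMSO, was above 97.9% of tested genes there. It had 14420, 10950, 5405 and 6918 scaled counts at 1, 2, 4 and 20 h of JQ1, against 20230 and 21370 in DMSO at 1 and 20 h. Every JQ1 library was below both DMSO libraries, except that of 1 h with TMM or DESeq2 factors (log2 fold change 0.0034 and 0.025), and the 4 h library was the lowest under each scaling. The edgeR log2 fold change was -1.14 ± 0.36 (SE), with an adjusted p of 0.0390 by the quasi-likelihood test. The call was lost without the JQ1 library of 2 h (edgeR adjusted p = 0.0680), 4 h (0.0581) or 20 h (0.0503), and without the DMSO library of 1 h (0.132) or 20 h (0.165). The decrease deepened over the first hours: the log2 fold change was -0.53 at 1 h, where the median of all genes was -0.54, and -1.94 at 4 h, where the median was -0.81. At 4 h 11.2% of all tested genes had a lower value. In the same bin of abundance (1 of 5 bins, cut on the mean over all JQ1 and DMSO libraries) 0.806% of genes did. At 20 h Sr-CI was at 33.3% of the DMSO mean and its level per kilobase was 3142.

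Sr-CIV, a smaller gene of the same class, had the lowest fold change of the 9. Its scaled counts were 198.8, 133.7, 117.9 and 424.6 at 1, 2, 4 and 20 h of JQ1, against 659.5 and 704.3 in DMSO at 1 and 20 h. All JQ1 libraries lay below both DMSO libraries, by a wide margin at the first 3 times and by less at 20 h. The means were 219 ± 142 (SD, n = 4) with JQ1 and 682 ± 31.7 (SD, n = 2) with DMSO, and the edgeR log2 fold change was -1.64 ± 0.50 (SE; adjusted p = 0.0357, quasi-likelihood test). The call was lost without the JQ1 library of 1 h (edgeR adjusted p = 0.0675), 2 h (0.0803) or 4 h (0.0725) and without the DMSO library of 1 h (0.128) or 20 h (0.159), while without that of JQ1 20 h it was 0.0016. Sr-CIV was the 1 gene of the 9 already under 50% of DMSO at 1 h. Its log2 fold change at that time was -1.77 (95% counting interval -1.99 to -1.57), and 8428 of the 8690 tested genes had a higher one. In its bin of abundance 8.4% of genes had a lower value at 1 h. Set against the median of all genes, its log2 fold changes at the first 3 times were -1.23, -1.70 and -1.72, and these differences lay between -1.25 and -1.21, -1.71 and -1.68, and -1.74 and -1.69 under the other settings. At 20 h the gene was at 62.3% of DMSO, and 45.3% of tested genes were lower. Its level at 20 h was 3.60 times that at 4 h, a step exceeded by 103 of the tested genes. Of the 2 other class C genes, Sr-CIII had 93.2, 65.6, 57.1 and 40.0 scaled counts with JQ1 at 1, 2, 4 and 20 h, against 102.5 and 81.9 in DMSO, and did not pass the edgeR test (adjusted p = 0.255). Sr-CII was under the filter on low counts.

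Apoptotic cells are taken up through crq, a CD36-family receptor, and drpr, the fly relative of the worm engulfment receptor CED-1. crq had 4500, 3629, 2396 and 3811 scaled counts at 1, 2, 4 and 20 h of JQ1, against 6363 and 6521 in DMSO at 1 and 20 h. drpr had 7938, 6591, 4890 and 5524 scaled counts at the same JQ1 times, against 11580 and 10830 in DMSO. In both genes all JQ1 libraries were below both DMSO libraries and the 4 h library was the lowest on this scaling. With TMM and DESeq2 factors the 1 h library was not below them, with log2 fold changes of 0.013 and 0.034 for crq and 0.032 and 0.054 for drpr, and for drpr the 20 h library was the lowest under those and total counts. The edgeR log2 fold changes were -0.85 ± 0.23 (SE) for crq and -0.85 ± 0.20 (SE) for drpr, with adjusted p-values of 0.0257 and 0.0156 by the quasi-likelihood test. crq lost its call without the JQ1 2 h library (edgeR adjusted p = 0.0632), and without the DMSO library of 1 or 20 h both lost it (0.116 and 0.141 for crq, 0.103 and 0.101 for drpr). Relative to the median of all tested genes both were at -0.21, so most of each change was of the size of the median over genes of every abundance. At 1 h neither stood below that median, as the log2 fold change was -0.52 for crq and -0.50 for drpr. At 4 h crq was at -0.62 relative to it, and 22.4% of tested genes were lower still. drpr was at -0.39 relative to it at 4 h and at -0.43 at 20 h. Both genes were in the highest bin of abundance. In that bin 28.2%, 11.7%, 3.51% and 17.55% of genes were lower than crq at 1, 2, 4 and 20 h. For drpr the shares were 30.8%, 14.4%, 7.19% and 9.78%. The exons of crq share 448 bases with the gene ex on the opposite strand, where reads cannot be assigned further since the use of strand in the counting was not stated. Those of drpr overlap a shorter stretch of Oseg4 on the same strand, where reads of both genes cannot be told apart.

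**Figure D2:**
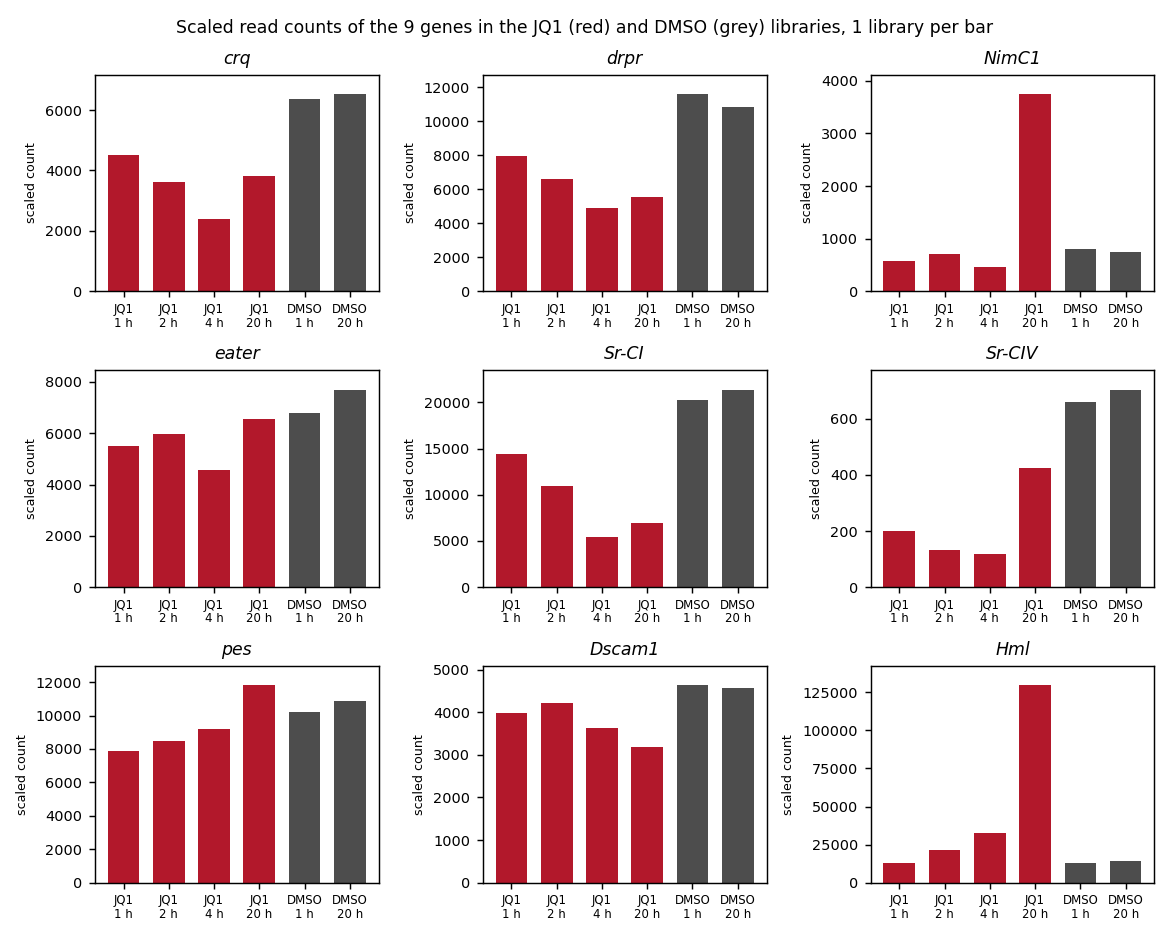
Scaled read counts (vertical axes, each from 0) of the 9 genes in each library, with JQ1 libraries (1, 2, 4, 20 h) in red and DMSO libraries (1, 20 h) in grey. The red bars of crq, drpr, eater, Sr-CI, Sr-CIV and Dscam1 are all below both grey bars on this scaling, which under TMM or DESeq2 factors holds for Sr-CIV alone, while for NimC1, pes and Hml the 20 h bar is above them.

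Receptors for bacteria did not share 1 pattern. NimC1, a Nimrod-type receptor of plasmatocytes, had 572.6, 703.4, 465.1 and 3740 scaled counts at 1, 2, 4 and 20 h of JQ1, against 797.7 and 751.1 in DMSO at 1 and 20 h. On this scaling the first 3 JQ1 libraries were below both DMSO libraries, while with TMM or DESeq2 factors 0 were, and the 20 h library was far above both under each scaling. At 20 h the log2 fold change was 2.27 (95% counting interval 2.18 to 2.36), and 68 of the 8690 tested genes had a higher one. Between 4 and 20 h of JQ1 the level grew 8.04-fold, a step that 16 tested genes exceeded. The gene moved in rank as well: per kilobase of exon it was above 80.9% of tested genes at 20 h of JQ1 and above 32.8% in DMSO. The comparison of all JQ1 with both DMSO libraries did not pass the test (log2 fold change 0.82 ± 0.90, SE; edgeR adjusted p = 0.463), and without the JQ1 20 h library the log2 fold change was -0.42. The change at 20 h thus rests on 1 library, and its log2 value lay between 2.23 and 2.83 under the other settings.

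The other Nimrod-type receptor for bacteria, eater, had 5512, 5958, 4576 and 6554 scaled counts at 1, 2, 4 and 20 h of JQ1, against 6774 and 7696 in DMSO at 1 and 20 h. All JQ1 libraries were below both DMSO libraries on this scaling, against 0 of them with TMM or DESeq2 factors, and the 20 h library lay close to the lower DMSO value. The edgeR log2 fold change was -0.36 ± 0.16 (SE, adjusted p = 0.112), which was 0.28 above the median of all genes, and it was 0.22 with TMM and 0.27 with DESeq2 factors. In its bin of abundance, the highest, 43.8%, 57.9%, 30.3% and 54.3% of genes were lower than eater at 1, 2, 4 and 20 h. Without the JQ1 20 h library eater was called lower (log2 fold change -0.44; edgeR adjusted p = 0.0263), in a fit that called 64.3% of all genes lower with a median of -0.66.

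pes, a CD36-family receptor known for the uptake of mycobacteria by S2 cells, had 7901, 8456, 9184 and 11810 scaled counts at 1, 2, 4 and 20 h of JQ1, against 10220 and 10880 in DMSO at 1 and 20 h. On this scaling the 3 earlier JQ1 libraries lay below both DMSO libraries and the 20 h library above both, so the groups overlap, while with TMM or DESeq2 factors all 4 lay above both. Relative to the median of all genes pes was higher at each time, by 0.13, 0.33, 0.61 and 0.75 on the log2 scale at 1, 2, 4 and 20 h. In its bin of abundance, also the highest, 40.56%, 53.45%, 71.0% and 75.78% of genes were lower than pes at those times. The edgeR log2 fold change was -0.18 ± 0.18 (SE; adjusted p = 0.421), and it was above 0 under each of the 4 other scalings, at 0.03 to 0.46. Without the JQ1 20 h library pes was called lower (log2 fold change -0.31; edgeR adjusted p = 0.0194), in the same fit with 64.3% of all genes called lower and a median of -0.66.

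Dscam1 encodes an immunoglobulin superfamily protein that is spliced into a very large number of isoforms, and blood cells need it for efficient uptake of bacteria. It had 3977, 4214, 3641 and 3189 scaled counts at 1, 2, 4 and 20 h of JQ1, against 4637 and 4578 in DMSO at 1 and 20 h. On this scaling the JQ1 libraries were all below both DMSO libraries, by the most at 20 h, while with TMM or DESeq2 factors 3 of the 4 lay above both. The edgeR log2 fold change was -0.30 ± 0.15 (SE, adjusted p = 0.131), and it was 0.29 with TMM and 0.34 with DESeq2 factors. In its bin of abundance, the highest, 70.1%, 74.9%, 59.4% and 27.5% of genes were lower than Dscam1 at 1, 2, 4 and 20 h. Over the JQ1 libraries the highest level of Dscam1 was 1.32 times the lowest, and 1.38 to 1.54 times under the other scalings. The annotation lists 75 transcripts and 26496 exonic bases for the gene, and counts per gene do not tell its isoforms apart.

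Hml showed the largest difference of the 9 genes at 20 h. It had 12710, 21680, 32870 and 129700 scaled counts at 1, 2, 4 and 20 h of JQ1, against 12720 and 13860 in DMSO at 1 and 20 h. On this scaling the 1 h library was level with DMSO, and the later 3 were above both DMSO libraries, each above the one before. Under each of the 4 other scalings all 4 JQ1 libraries were above both, with a log2 fold change of 0.16 to 0.49 at 1 h. The log2 fold changes were -0.06, 0.71, 1.31 and 3.29 at 1, 2, 4 and 20 h, and relative to the median of all genes 0.48, 1.35, 2.11 and 3.88. In the order of these times, 1010, 329, 107 and 29 tested genes had a higher fold change. At 20 h Hml reached 9.76 times the DMSO mean (95% counting interval of the log2 value 3.27 to 3.31), and it took 0.438% of all gene reads at JQ1 20 h, against 0.0411% and 0.0434% in DMSO at 1 and 20 h. Per kilobase of exon it was above 97.8% of tested genes at 20 h of JQ1, where it was the most abundant of the 9, and above 74.3% in DMSO. The comparison over all JQ1 libraries did not pass the test (log2 fold change 1.89 ± 0.94, SE; edgeR adjusted p = 0.134), nor did it under any of 14 alternatives (adjusted p 0.0701 to 0.333). All of those alternatives gave a positive value, with 0.75 without the JQ1 20 h library. The log2 value at 20 h lay between 3.23 and 3.85 under the other settings.

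Together the 9 genes had 57740, 62320, 63540 and 171700 scaled counts at 1, 2, 4 and 20 h of JQ1, against 73980 and 77170 in DMSO at 1 and 20 h. On this scaling the sum was below both DMSO libraries at the first 3 times and above both at 20 h, while with TMM or DESeq2 factors it was above both at all 4 times. Without Hml the other genes summed to 45020, 40640, 30670 and 41970 with JQ1, against 61260 and 63320 in DMSO. All 4 JQ1 libraries were then below both DMSO libraries on this scaling, with 500 index genes and with total counts, but 3 with TMM and 2 with DESeq2 factors, where the others lay above both. The share of Hml in the sum was 22.02%, 34.8%, 51.7% and 75.6% at 1, 2, 4 and 20 h of JQ1, against 17.2% and 18.0% in DMSO. These sums are not divided by length, so longer genes weigh more in them. Hml has 11756 exonic bases, against 2202 for Sr-CI and 26496 for Dscam1, so its share of counts is not a share of transcripts.

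**Figure D3:**
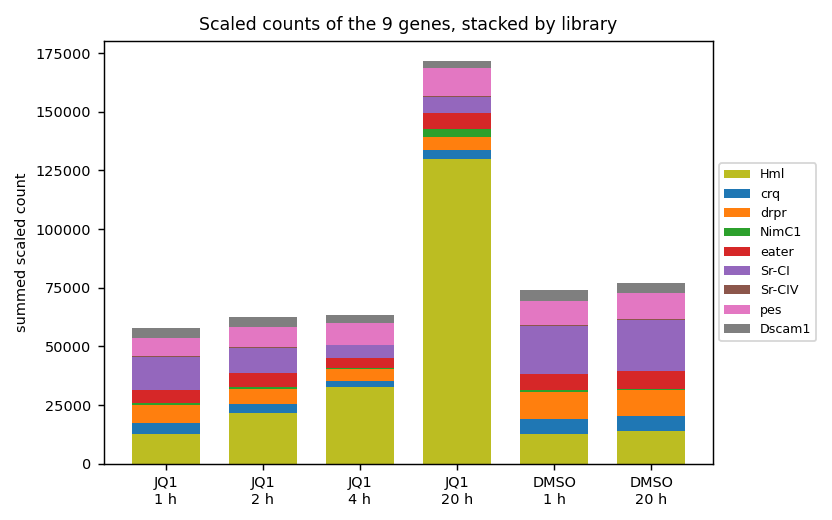
Scaled counts of the 9 genes (vertical axis) stacked by library, with Hml at the base; JQ1 libraries of 1, 2, 4 and 20 h stand left of the DMSO libraries of 1 and 20 h. Hml makes up 75.6% of the JQ1 20 h bar and 17.2% and 18.0% of the DMSO bars, in counts not divided by gene length.

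Each JQ1 time was also set against the mean of the DMSO libraries, with 1 library per time and no test. At 1 h 1 of the 9 genes was below 50% of DMSO (Sr-CIV) and 0 above 200%, where 19.4% of all tested genes were below and 0.875% above. At 2 h 1 gene was below 50% (Sr-CIV) and 0 above 200%, with 31.1% and 2.36% of all genes. At 4 h 4 genes were below 50% (crq, drpr, Sr-CI and Sr-CIV) and 1 above 200% (Hml), with 39.5% and 2% of all genes. At 20 h 2 genes were below 50% (drpr and Sr-CI) and 2 above 200% (NimC1 and Hml), with 31.4% and 4.4% of all genes. drpr at 20 h was just inside that limit, at 49.3% of DMSO. Only Sr-CI and Sr-CIV remained below 50% at 4 h with TMM or DESeq2 factors. The 4 times share their DMSO libraries, so their values are not independent.

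Between 4 and 20 h of JQ1 the 9 genes had a median step of 0.52 on the log2 scale, against 0.24 over all tested genes, and 7 of the 9 were above that median. The steps of NimC1, Hml and Sr-CIV exceeded 2-fold, at 8.04-fold, 3.95-fold and 3.60-fold. drpr and Dscam1 were below it, with steps of 0.18 and -0.19. Between the DMSO libraries the same 9 genes differed by -0.10 to 0.18 on the log2 scale from 1 to 20 h.

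**Figure D4:**
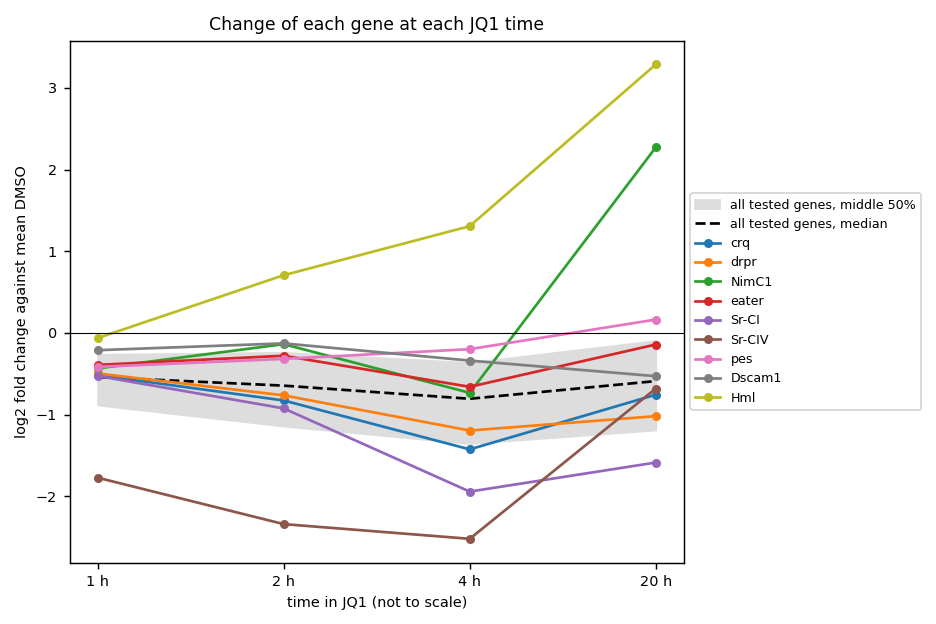
Log2 fold change of each gene against the mean of the DMSO libraries (vertical axis) at each JQ1 time (horizontal axis, not to scale), with the middle 50% of all tested genes in grey and their median dashed. On this scaling Hml climbs from 2 h on to 3.29 at 20 h, NimC1 reaches 2.27 at 20 h, and Sr-CIV lies under the grey band until 4 h.

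The other genes of these families and of the machinery behind the receptors were listed by function. Their calls, here and below, were examined on the scaling used here alone, where 44.3% of all tested genes were called lower and 1.43% higher. Of 9 further Nimrod genes 7 were tested, and 1 was called lower and 0 higher by edgeR, with a median of -0.51 for the log2 fold change. The called gene was NimB1, with 172.4, 150.7, 145.5 and 179.2 scaled counts at 1, 2, 4 and 20 h of JQ1, against 267.4 and 285.9 in DMSO. NimB2, a secreted Nimrod protein, had 1026, 1057, 1039 and 4158 scaled counts at those JQ1 times, against 1037 and 1132 in DMSO, so its level at 20 h stood apart as that of NimC1 did. The next gene in this group, NimC3, had 124.9, 105.6, 77.4 and 16.0 with JQ1, against 168.2 and 139.0 in DMSO, and NimA and NimC4 were under the filter. NimB2 and NimC3 did not pass the test (edgeR adjusted p = 0.365 and 0.269). Of 12 further CD36-family genes 8 were tested, and 3 were called lower and 0 higher, with a median of -1.08. The called genes were santa-maria and ninaD, known for carotenoid uptake, and CG3829. santa-maria had 235.7, 137.1, 82.0 and 61.1 scaled counts at 1, 2, 4 and 20 h of JQ1, against 408.9 and 335.3 in DMSO, a log2 fold change of -1.53 ± 0.51 (SE; edgeR adjusted p = 0.0458).

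Integrins and thioester proteins act at the same step as the receptors. Of 7 integrin subunits 6 were found and tested, and 1 was called lower and 0 higher, with a median of -0.20. The called subunit was Itgbn, the beta subunit that takes part in phagocytosis of bacteria and apoptotic cells, with 365.9, 258.9, 137.2 and 180.2 scaled counts at 1, 2, 4 and 20 h of JQ1, against 614.9 and 596.5 in DMSO. The beta subunit mys had 37460 at 20 h of JQ1, against 14440 and 14680 in DMSO, but 12060, 13080 and 13880 at the earlier JQ1 times (edgeR adjusted p = 0.514). Of 5 thioester proteins, which coat microbes, 3 were tested and 0 were called in either direction by edgeR, with a median of 0.17.

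Downstream of the receptors, 7 of 13 tested engulfment signalling genes were called lower and 0 higher, with a median of -0.51. The largest changes were those of csw (-1.14 ± 0.18, SE), a phosphatase known to act in drpr signalling in glia, the adaptor Dab (-1.02 ± 0.28) and Ced-6 (-0.98 ± 0.17), an adaptor that binds drpr. Ced-6 had 10590, 8520, 6955 and 8494 scaled counts at 1, 2, 4 and 20 h of JQ1, against 16210 and 17940 in DMSO. All its JQ1 libraries were below both DMSO libraries, as in 67.9% of all tested genes. Of the genes for actin nucleation at the phagocytic cup 3 of 12 tested were called lower and 0 higher (WASp, Arp2 and Arpc2; median -0.31). Among phagosome maturation genes 3 of 11 were called lower and 0 higher (dor, Rbsn-5 and lt; median -0.45). In the 7 lists with more than 1 tested gene, 18 of 60 tested genes were called lower and 0 higher, where 44.3% and 1.43% of all tested genes were called. Only the CD36 family had a median below that of all genes.

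**Figure D5:**
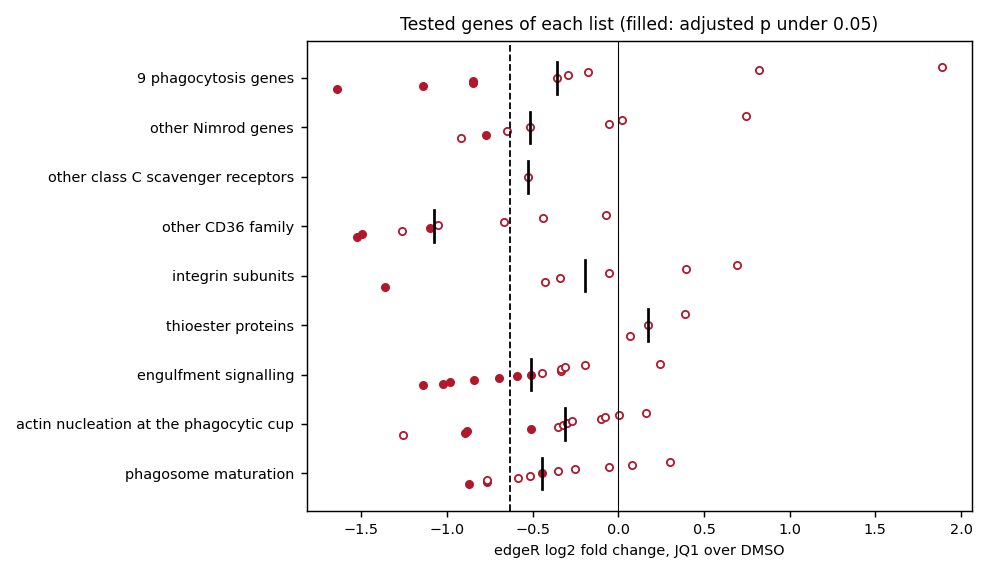
Log2 fold change from edgeR (horizontal axis, JQ1 over DMSO) of the tested genes of each list, 1 point per gene, filled where the adjusted p was under 0.05 on this scaling; the black bar is the median of the list and the dashed line the median of all tested genes. The filled points are all left of 0, and the rightmost points are Hml and NimC1, which did not pass the test.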

How the data were processed

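Polyadenylated RNA of S2-DRSC cells was sequenced in 6 libraries, with single-end reads of 50 cycles. The authors aligned reads with TopHat to BDGP5 with the gene models of Ensembl release 64, and the deposited files hold raw counts of uniquely mapping reads per gene from HTSeq-count. Tool versions and the strand setting are not given in the sources used here. The 5 lines naming no gene (21.93% to 27.33% of a library) were left out. Symbols, exonic lengths and neighbours came from Ensembl release 115, a newer build, so no coordinates are printed; it gave a symbol to 13524 identifiers. Promoter and protein sequences were not analysed here.

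The scaling followed the authors in resting on the 100 genes most abundant in control. A library's factor was the median ratio of these genes to their geometric mean over the 6 libraries. Genes averaging 10 or more scaled counts over all libraries were tested with edgeR 4.0.16 (R 4.3.3), by the quasi-likelihood test, two-sided, with Benjamini-Hochberg adjustment at 0.05. Each SE given with an edgeR fold change was derived from that test, as the absolute log2 fold change over the square root of its F statistic. It is not a separate estimate of spread. Values at single times are log2 of scaled JQ1 plus 1 over mean scaled DMSO plus 1, which understates changes of low genes. Their intervals (95%) and any other interval cover counting error only. The procedure was tested on simulated data in which few genes changed, up and down alike, and the index genes did not. Such data cannot show how it behaves when most genes fall or the index itself moves.

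Members and lists were chosen with earlier results of these data known. All 9 members are named. From each list the text names up to 3 called genes with the largest fold change and genes that describe abundance, and for each member the 2 genes with the most similar profile, which for eater are not reported here. NimB2, NimC3, mys and the neighbours were named after their values were seen. Alternatives were 4 other scalings, no filter or a minimum of 50, leaving out each library, treatment duration as a block, DESeq2 1.42.0 and, for single times, a pseudocount of 5 or either DMSO library alone. List genes unmatched by symbol were not analysed here.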

Additional observations from a re-analysis of the deposited data

Results flagged for a closer look

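NimC1 at 20 h of JQ1 was far from the other JQ1 libraries. With 3740 scaled counts, against 465.1 to 703.4 in those of 1, 2 and 4 h, its gap to the nearest of them was 0.927 of the whole range, above the limit of 0.829 for 4 values. Chance passes that limit in about 5% of groups, and 9 groups were examined. Hml, with a gap of 0.828, fell just short of it. The JQ1 libraries differ in duration, so they are not replicates of 1 time.

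Set against the DMSO library of the same duration, NimC1 and pes moved in opposite directions at 1 and 20 h. The log2 fold change of NimC1 was -0.48 at 1 h and 2.31 at 20 h. That of pes was -0.37 at 1 h and 0.12 at 20 h. With 1 library per group the difference between the times was not tested, and for both genes the sign at 1 h depends on the scaling: with DESeq2 factors NimC1 was at 0.12 and pes at 0.14 at 1 h against the mean of the DMSO libraries.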

How the results depend on the processing

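Of the 9 genes, 4 were called lower by edgeR, but 0 with 500 index genes, total counts, TMM or DESeq2 factors (25.9%, 21.9%, 6.52% and 5.55% of all genes lower) and 0 when treatment duration was the block, a fit that called 0 of all genes. Leaving out 1 library gave 0 to 5 lower calls: 0 without either DMSO library, where edgeR called 0 of all tested genes, 1 without JQ1 2 h (drpr; 25.3% of all genes), 2 without JQ1 4 h (crq and drpr; 30.6%), 3 without JQ1 1 h (44.7%) and 5 without JQ1 20 h (64.3%). The count of higher calls was 0 throughout. The log2 fold change of NimC1 was -0.42 without the JQ1 20 h library, and between -0.42 and 1.11 over the fits that left out 1 library. In the fit over all JQ1 libraries, log2 fold changes that turned positive, none of them called, were those of eater (0.22 with TMM, 0.27 with DESeq2 factors), Dscam1 (0.29 and 0.34) and pes (0.026 with 500 index genes, 0.078 with total counts, 0.41 with TMM, 0.46 with DESeq2 factors). At 1 h all members but Sr-CIV were above 0 with TMM and DESeq2 factors, with 0.0034 to 0.054 for crq, drpr and Sr-CI. Genes above 200% at 2 h numbered 0, but 1 (Hml) with total counts, TMM or DESeq2 factors. Genes below 50% at 4 h numbered 4, but 3 with 500 index genes or total counts and 2 with TMM or DESeq2 factors. Genes below 50% at 20 h numbered 2, but 1 with each other scaling and with DMSO 20 h as the only control. No paired analysis was possible because the labels give no replicate numbers; the block above is the treatment duration. Each time was 1 library, and no external standard sets the absolute scale.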

Other observations

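The tested genes nearest to NimC1 and Hml on the chromosome did not share the high values of these genes at 20 h. NimC1 lies in a cluster of Nimrod genes, next to Hemese (He), which encodes a surface protein of blood cells. He had 3624, 3302, 2131 and 2491 scaled counts at 1, 2, 4 and 20 h of JQ1, against 5049 and 5385 in DMSO at 1 and 20 h. On this scaling, the only one examined for it, He was called lower by edgeR's quasi-likelihood test (log2 fold change -0.85 ± 0.22, SE, adjusted p = 0.0224). At 20 h, where NimC1 was at 2.27, the log2 fold changes of He, NimB5 and Cyp28a5 were -1.07, -0.31 and 0.05. The Nimrod gene NimB2, not among these nearest genes, was at 1.94. CG8745, the neighbour of Hml with the most reads, was at -0.33 when Hml was at 3.29. Of its other neighbours, CG8750 and Tsp68C were under the filter. CG13737 averaged only 5.26 scaled counts with JQ1 and 20.6 with DMSO. Near pes, the gene Sirup was at -3.89 at 20 h, where pes was at 0.16. Near Sr-CIV, the gene Spindly was called lower on this scaling (log2 fold change -1.79, edgeR adjusted p = 0.00812), with -2.36 at 4 h, where Sr-CIV was at -2.52.

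Among the plasmatocyte markers, Papilin (Ppn), an extracellular matrix protein, had 2770, 5420, 10830 and 21280 scaled counts at 1, 2, 4 and 20 h of JQ1, against 3129 and 3003 in DMSO. On this scaling it was below both DMSO libraries at 1 h and, like Hml, above both at the 3 later times, and it did not pass the test either (edgeR adjusted p = 0.105). The collagen gene Col4a1 had 484500 scaled counts at 20 h of JQ1, against 198000 and 202000 in DMSO. The peroxidase Pxn had 145100 at 20 h of JQ1, against 218400 and 223500 in DMSO.

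By Pearson's r of the log2 scaled counts over the 6 libraries, the profiles most like that of Hml were those of Mnr (0.998) and Hsc70-3 (0.997), which encodes the chaperone BiP of the endoplasmic reticulum. Hsc70-3 had 48910, 71240, 117200 and 331900 scaled counts at 1, 2, 4 and 20 h of JQ1, against 50710 and 50030 in DMSO. For NimC1 the most similar profiles were those of JhI-21 and Nepl3 (0.993 each), for crq Iml1 and sturkopf (0.999 each), for drpr CR18228 and Plc21C (0.999 each), for Sr-CI CG15717 and moon (0.999 each), for Sr-CIV ArgRS and Miga (0.999 each), for pes TfIIA-L and vtd (0.998 and 0.994), and for Dscam1 ChLD3 and CG14834 (0.998 each). The points share libraries and scaling factors, and for each member 67 to 1281 genes had r over 0.95, so such likeness was common.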
